A study of Drosophila melanogaster with 2 samples.

Results

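The 10 genes described here belong to the Decapentaplegic (Dpp) pathway of Drosophila melanogaster, and they were taken by name from a list that sorts them by where their products act. The extracellular members were dpp, sog and tld, the receptor members tkv, sax and put, and the members acting in the cell and its nucleus Mad, Med, shn and brk. They are 10 of the 13968 protein-coding genes on the chromosome arms, and all 10 symbols matched the annotation. For each gene, peak summits were counted in the gene body and within 5 kb of either end, which is called its window below. A summit within 500 bp of one of the gene's own annotated starts was counted as an own-promoter summit, and summits at starts of neighbouring genes were kept apart.

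Dpp is a secreted ligand of the bone morphogenetic protein family. It brings type I and type II receptors together, and the receptors phosphorylate the transcription factor Mad, which enters the nucleus with Med. Graded Dpp activity sets the dorsoventral axis of the early embryo, where Sog binds the ligand and the protease Tld releases it by cutting Sog. In the later embryo Dpp signalling keeps the salivary gland primordium, which the Hox protein Sex combs reduced (Scr) specifies, to the ventral side, and in the visceral mesoderm dpp itself is controlled by Hox proteins.

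The peaks come from chromatin immunoprecipitation with sequencing (ChIP-seq) of 2 biological replicates of whole embryos aged 0 to 24 h, which form 1 group. The flies carried a transgene insertion that makes Scr fused to eGFP (strain Scr-GFP), and an anti-GFP antibody was used, although the antibody field names Scr. All tissues of the embryo were pooled and the sample spans the whole of embryogenesis, so no peak can be given to a stage or to the segments that express Scr. With 1 group there was no comparison between conditions and no test.

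The authors deposited a thresholded and a ranked list for each replicate, and at the series level a main and a conservative pair of lists made from both replicates. On the arms the thresholded lists held 5720 entries (main), 5671 (conservative), 4462 (replicate 1) and 4376 (replicate 2), and the ranked lists between 67592 and 77377. The signal of an entry is the authors' own value for that peak. No source used here gives its scale, and sequencing depth is unknown, so signals are ranked only within a list, and the replicates' values are printed side by side. The median signal was 134 in the main list and 98.0 and 96.9 in those of replicates 1 and 2. Scores follow the irreproducible discovery rate (IDR), are capped at 1000, and were at least 830, or an IDR of 0.01, in the thresholded lists.

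In the main list 9 of the 10 pathway genes had a summit in their window, all but Med, where 61.2% of all protein-coding genes did. Own-promoter summits were found at 7 of the 10, dpp, sog, tkv, sax, put, Mad and brk, against 36.2% of all genes. The conservative list gave 8 genes with a window summit (background 60.7%) and 7 with an own-promoter summit (36%), with shn in place of sog. In replicate 1's list these counts were 8 (55.8%) and 6 (30.8%), and in replicate 2's 7 (55.3%) and 5 (30.4%). The pathway genes are long, with a median window of 20131 bp against 12165 bp for all genes. The 10 have 23 annotated starts in all, against 19630 for the 13968 genes. Among the 4834 genes whose window length lay within the members' range, both shares were higher than over all genes. A window summit was at 71.4% of them and an own-promoter summit at 46.8%. That background was not matched for the number of starts, each of which can give a gene an own-promoter summit.

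**Figure D1:**
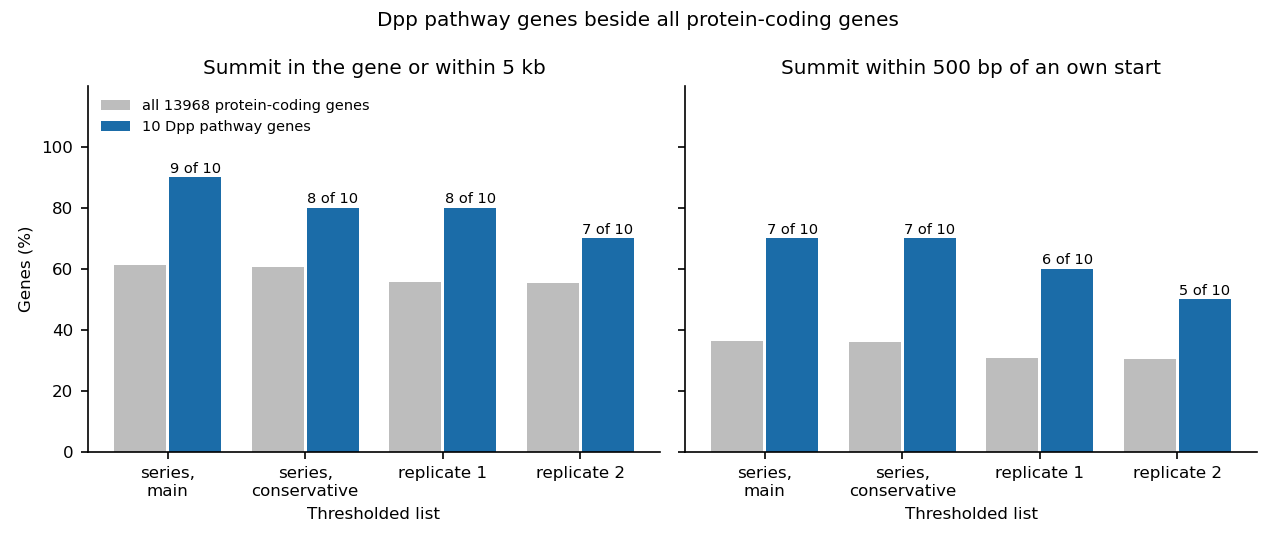
Share of genes (%) that had a window summit, in the gene body or up to 5 kb from it (left), and one within 500 bp of an own start (right) in each thresholded list, for all 13968 protein-coding genes (grey) and the 10 Dpp pathway genes (blue, with their count). The blue bars are higher in all 8 pairs, and the 10 genes have longer windows than most genes.

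The ranked lists, which include entries far below the threshold, held an entry in the window and at an own promoter of all 10 genes. The backgrounds there were 85.5% and 69.2% of genes in the main ranked list, 85.1% and 69.1% in the conservative one, 89.8% and 68.4% in replicate 1's, and 86% and 68.6% in replicate 2's. The 10 of 10 therefore says little about these genes, and ranked entries are used below to give a value where a thresholded list has none.

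**Figure D2:**
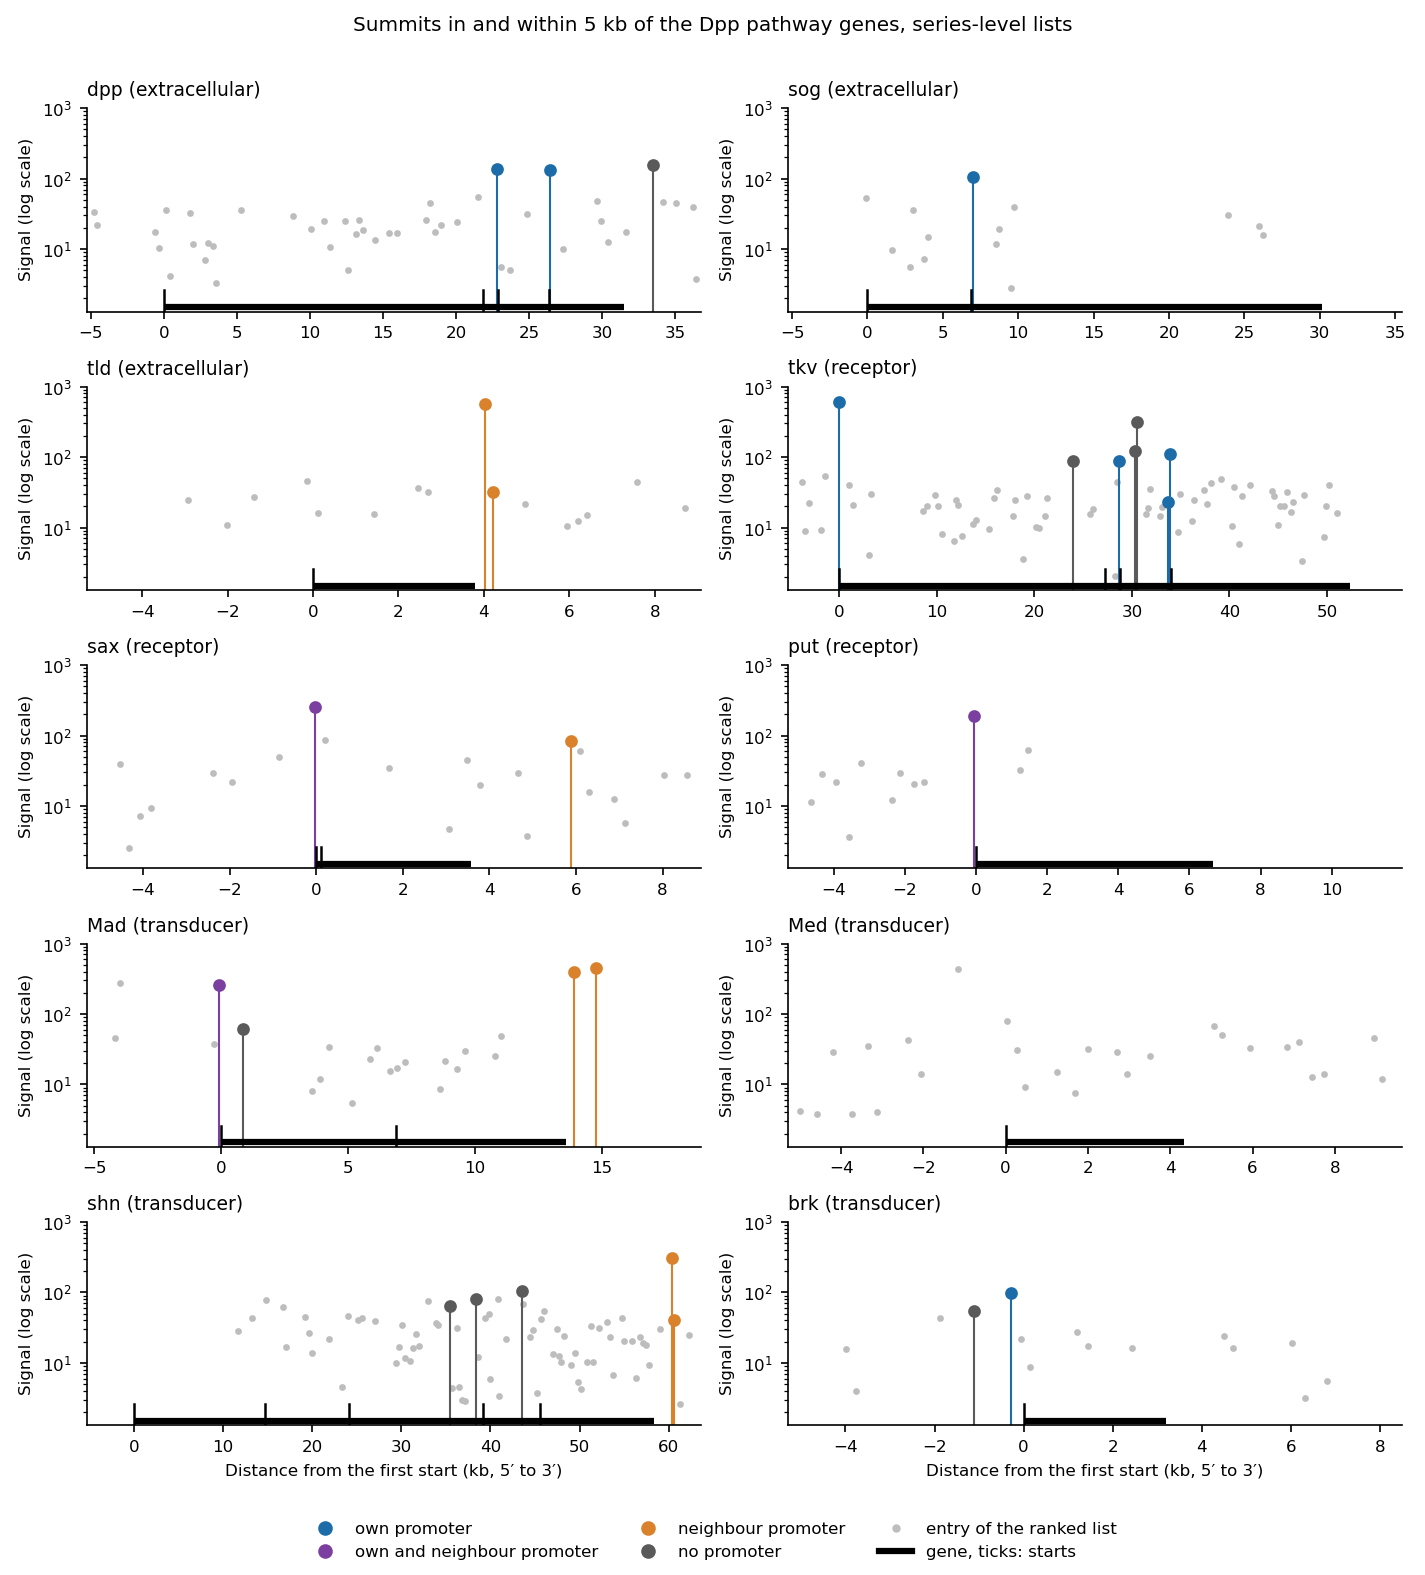
Signal (log scale) of entries against distance from each gene's first start (kb, in the direction of transcription), in the 10 windows. Large points with stems are main thresholded summits coloured by place, small grey points are entries of the main ranked list, black bars are the genes and ticks their starts. The strongest thresholded summit lay at an own start in tkv, sax, put, sog and brk, at a neighbour's start in tld, Mad and shn, and past the gene's end in dpp, while Med had none.

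The ligand gene dpp (FBgn0000490, chr2L:2428372-2459823, plus strand, dm6) had 3 main summits, of similar signal and close to the list's median. The strongest, at 2461809, lay 1986 bp past the 3′ end of the gene, on the side where enhancers for the imaginal discs are known, and 7072 bp from the nearest annotated start. Its signal was 154 (rank 2590 of 5720) in the main list, with 71.9 and 68.8 in replicates 1 and 2. It was the one dpp summit listed by both replicates.

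The other dpp summits marked starts 3 and 4 of its 4, counted 5′ to 3′, and the replicates divided them. At start 3, the summit at 2451188 lay 41 bp upstream and its main signal was 139. Replicate 1 listed it at 59.1, whereas in replicate 2's ranked list the entry there had a signal of 73.7 and a score of 66 (IDR 0.690). At start 4, the summit at 2454820 lay 83 bp downstream with a signal of 132. Here replicate 2 listed it at 68.7, and replicate 1 ranked it at 59.0 with a score of 63. In each replicate the listed and the unlisted start thus had nearly the same signal and scores at opposite ends of the scale. Start 1, far upstream, had only ranked entries of 36.1 (main), 19.9 and 14.6, and start 2 of 54.5, 26.6 and 26.9.

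The 101 bp around the summits past the 3′ end and at start 3 are shown because they carry the ligand gene's entries and hold none of the 8 site sequences searched (given below), so there are no capitals.
dpp past the 3′ end, chr2L:2461759-2461859, plus strand: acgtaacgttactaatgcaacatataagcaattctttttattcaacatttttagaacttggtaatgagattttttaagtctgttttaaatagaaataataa
dpp start 3, chr2L:2451138-2451238, plus strand: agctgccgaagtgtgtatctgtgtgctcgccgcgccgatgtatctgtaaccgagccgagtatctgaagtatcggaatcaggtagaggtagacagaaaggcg

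For sog (FBgn0003463, chrX:15603283-15633434, minus strand), whose product binds Dpp outside the cell, the main list held 1 summit, and it rested on 1 replicate. It lay at 15626462, 78 bp inside the second of the gene's 2 starts, with signal 104 (rank 3560). Replicate 1 listed it at 70.6. Replicate 2 had no overlapping entry even in its ranked list, and neither conservative list had one at that start. It was the only one of the 27 main summits in the 10 windows without an overlapping entry in both replicates' ranked lists. At the outer start the ranked lists gave 53.2 (main), 19.9 and 36.6, with scores of 184, 46 and 44.

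The gene tld (FBgn0003719, chr3R:24749731-24753510, plus strand), which encodes the protease that cuts Sog, had the highest window signal of the extracellular members, but at another gene's start. The summit at 24753747 lay 237 bp past the end of tld and 102 bp from the start of asp, which encodes a spindle pole protein. Its signal was 561 (rank 803) in the main list, with 290 and 284 in replicates 1 and 2. A second summit of 32.3, 201 bp away, was also at asp and was listed in both replicates. At the start of tld itself the ranked lists held only 46.4 (score 261) at the series level and 14.9 (score 43) and 26.4 (score 53) in the replicates, all far below the threshold. The entry at asp therefore placed tld among the genes with a window summit and not among those with an own-promoter summit.

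The receptor gene tkv (FBgn0003716, chr2L:5219000-5271384, minus strand), for the type I receptor through which most Dpp signalling runs, had the most summits, 7, and the strongest own promoter of the 10 genes. Its window is long, at 62385 bp. Per 10 kb of window it had 1.12 main summits, fewer than Mad (1.70), brk (1.52), sax (1.47) and tld (1.45) and more than the other members. The summit at 5271373 lay 11 bp inside its first start, with signals of 604 in the main list (rank 722) and of 295 and 304 in replicates 1 and 2. Of the 5062 genes with an own-promoter summit in the main list, 78.9% had a weaker one. Both replicates listed it.

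Inner starts of tkv were marked more weakly. At start 4 the signal was 110 in the main list, with 58.7 and 62.1 in replicates 1 and 2. A small companion entry there, of 22.9, overlapped those same replicate entries and had none of its own. At start 3 it was 89.2, with 42.1 (score 879) in replicate 1 and a ranked entry of 48.9 (score 510) in replicate 2, so that start was listed in 1 replicate only. That summit also lay 4 bp from the pseudogene CR14033. Start 2 had no entry in any of the 8 lists.

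An intron of tkv held the gene's second strongest summit, at a transfer RNA gene. The summit at 5240819 lay inside tRNA:Asp-GTC-2-1 (chr2L:5240766-5240837), with signals of 315 in the main list (rank 1537) and of 166 and 120 in replicates 1 and 2. A neighbouring summit at 5241026, 80 bp from tRNA:Asp-GTC-1-1, had 122 in the main list and 78.4 in replicate 2. Its own entry in replicate 1 was ranked at 40.8 with a score of 49. Across the genome 205 of 290 tRNA genes (70.7%) had a main summit in them or within 500 bp, so entries at tRNA genes such as this one were common. A further intron summit at 5247396 had 89.0 in the main list and 48.5 in replicate 1.

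The tkv summits are shown in the gene's own direction because the starts and the tRNA summit differ in the letters they hold. Capitals mark TATCGATA (DREF, a factor of housekeeping promoters) at starts 1 and 3, GAGAGAG on the other strand (GAGA factor) at start 4, and TGACAG (the Hox cofactor Hth) in the intron.
tkv start 1, chr2L:5271355-5271423, minus strand: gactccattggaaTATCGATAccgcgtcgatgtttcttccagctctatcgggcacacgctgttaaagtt
tkv start 3, chr2L:5242645-5242745, minus strand: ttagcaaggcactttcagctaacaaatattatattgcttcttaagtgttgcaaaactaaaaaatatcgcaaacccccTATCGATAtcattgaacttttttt
tkv start 4, chr2L:5237388-5237488, minus strand: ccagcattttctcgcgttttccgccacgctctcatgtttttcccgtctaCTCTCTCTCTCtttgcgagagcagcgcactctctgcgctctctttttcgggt
tkv intron at the tRNA gene, chr2L:5240769-5240869, minus strand: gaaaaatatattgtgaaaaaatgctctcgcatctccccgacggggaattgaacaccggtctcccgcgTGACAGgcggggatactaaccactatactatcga
The TGACAG letters of the last lie within the tRNA gene.

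The gene put (FBgn0003169, chr3R:14619030-14625703, minus strand), for the type II receptor that Dpp signalling uses, had a single summit, at 14625748. It lay 45 bp upstream of the only start of put and 7 bp from that of His4r, a histone H4 gene transcribed away from it. The signal was 187 (rank 2284) in the main list, with 83.0 and 104 in replicates 1 and 2. Both replicates listed it, but it cannot be given to put rather than His4r.

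The gene sax (FBgn0003317, arm 2R, plus strand), for a second type I receptor, also shared its promoter. The summit lay 17 bp upstream of the first of its 2 starts and within 500 bp of that of Nop17l, with signals of 250 in the main list (rank 1854) and of 145 and 103 in replicates 1 and 2. A second summit, 2309 bp past the gene's end, lay at the starts of TTLL12 and puml, with 83.8 in the main list and 43.0 in replicate 2. The conservative list added an entry of 86.0, 85 bp inside the second start of sax. All 3 receptor genes had an own-promoter summit in all 4 thresholded lists.

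**Figure D3:**
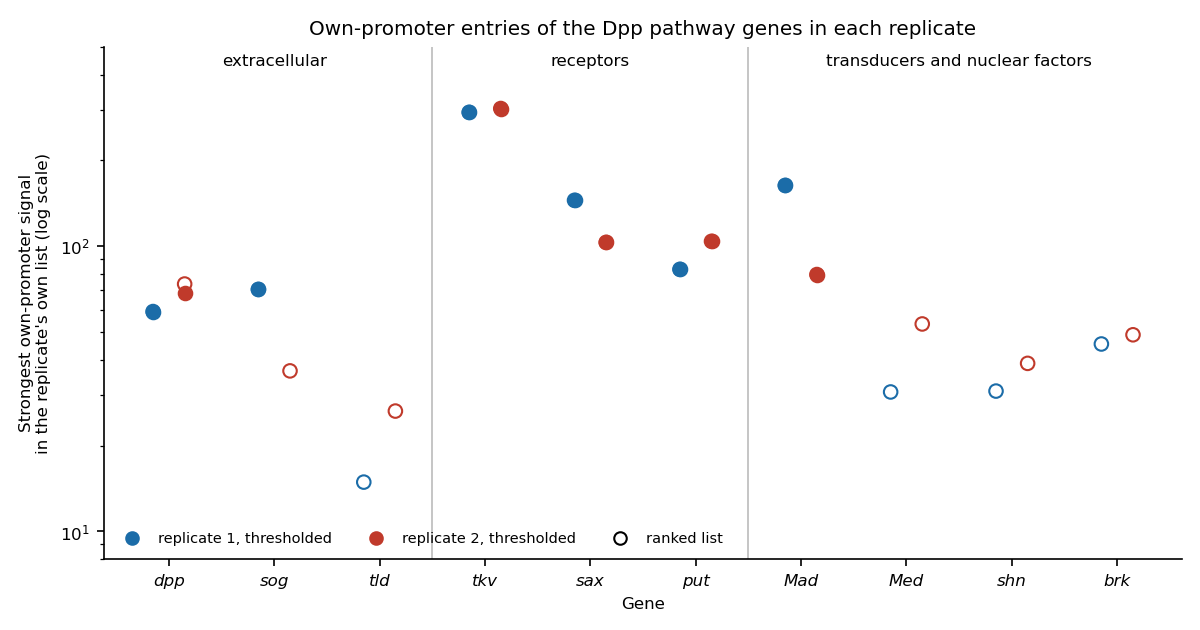
Strongest own-promoter signal (log scale) of each gene in replicate 1 (blue) and replicate 2 (red), each on its own list's scale; filled points are thresholded entries and open points the strongest entry of the ranked list. The receptor genes and Mad are filled in both replicates, from 79.6 to 304. So is dpp, at 59.1 in replicate 1 and 68.7 in replicate 2, at different starts. In both replicates tld, Med, shn and brk are open, from 14.9 to 53.4.

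The gene Mad (FBgn0011648, chr2L:3146056-3159643, minus strand), for the Smad that the receptors phosphorylate, had 4 summits, of which 1 was at its own promoter. That one, at 3159715, lay 72 bp upstream of its first start and is shared with gkt, which encodes a DNA repair phosphodiesterase. Its signal was 254 (rank 1830) in the main list, with 163 and 79.6 in replicates 1 and 2. Both replicates listed it, above the median signal of replicate 1's list and below that of replicate 2's. The strongest summits of the Mad window lay beyond its 3′ end, at the start of toc (448 in the main list, 225 and 221 in the replicates) and at that of ND-B14.5B, which encodes a subunit of respiratory complex I (392, 195 and 203). An intron summit of 61.1, 860 bp inside the gene, was in neither replicate's list. The inner start of Mad had ranked entries of at most 20.8.

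The shared promoters of put and Mad are shown because both were listed in every thresholded list, and neither holds any of the letters searched.
put and His4r, chr3R:14625698-14625778, minus strand: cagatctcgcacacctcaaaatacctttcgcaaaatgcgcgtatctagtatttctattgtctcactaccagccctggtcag
Mad and gkt, chr2L:3159665-3159765, minus strand: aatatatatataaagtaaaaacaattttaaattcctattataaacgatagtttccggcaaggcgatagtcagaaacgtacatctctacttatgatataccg

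The gene Med (FBgn0288966, chr3R:31611046-31615375, plus strand), for the common Smad that partners Mad, had no entry in any of the 4 thresholded lists, and the nearest main entries lay 14425 bp to one side and 53812 bp to the other. The ranked lists gave another picture. They held an entry 32 bp inside the start of Med, also within 500 bp of a start of the cyclin gene CycG, with a signal of 79.4 and a score of 802 (IDR 0.0117) in the main and 914 (IDR 0.00629) in the conservative ranked list. Replicate 2's ranked list had it at 53.4 with a score of 994, and replicate 1's at 30.8 with a score of 40. At another start of CycG, 1156 bp upstream of Med, the main ranked list had an entry of 434 with a score of 1000, and the replicates had 243 and 203, each also at 1000.

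The CycG entry met the score of the thresholded lists in all 4 pairs of lists, and the Med entry in the conservative and replicate 2 pairs, yet no thresholded list held either. Over the arms the same held for 160 of 5880 ranked entries at that score in the main pair of lists, and for 155 of 5826, 128 of 4590 and 131 of 4507 in the conservative, replicate 1 and replicate 2 pairs. The Mad window had 1 such entry, at the start of Hydr2, with 271 in the main ranked list, 148 in replicate 1 and 114 in replicate 2, each with a score of 1000. Per the submitters' file notes the thresholded lists had 1 input that the ranked lists lack, whose content no source used here gives. The count of 0 for Med is thus a count of listed entries, not of recovered signal.

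The gene shn (FBgn0003396, arm 2R, plus strand), for a zinc finger protein that joins the Smads to repress brk, had 5 main summits and none of them at its 5 starts. The strongest lay 2020 bp past the gene's end, at the starts of CG9084 and Syx6, and its signal was 310 (rank 1563) in the main list and 188 and 118 in the replicates. The 3 intron summits were weaker. They had 105 (70.7 in replicate 2 only), 81.8 (51.3 in replicate 1 only) and 64.5 (in neither thresholded replicate list). At the second start of shn the conservative list had an entry of 78.4 with a score of 905. The same entry scored 797 in the main ranked list, just short of 830, and the replicates ranked it at 31.1 and 38.9 with scores of 525 and 378.

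The gene brk (FBgn0024250, chrX:7307939-7311132, plus strand), for the repressor of Dpp target genes that the pathway switches off, had 2 main summits upstream and none inside the gene. The nearer, at 7307661, lay 278 bp from its start, and its main signal was 98.0 (rank 3739). Neither replicate listed it, and their ranked lists had it at 45.4 (score 818, IDR 0.0107) and 48.9 (score 702, IDR 0.0204), close to the threshold. The farther, 1107 bp upstream, had 54.0 in the main list and was again in neither replicate's list. Both lay inside the long non-coding RNA gene CR44357, which spans the locus.

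Both brk summits hold letters bound by the gene's own product, which is why they are shown. Capitals mark TGGCGC (Brk) or its reverse complement in both, and the reverse complement of GAGAGAG in the first.
brk promoter, chrX:7307611-7307711, plus strand: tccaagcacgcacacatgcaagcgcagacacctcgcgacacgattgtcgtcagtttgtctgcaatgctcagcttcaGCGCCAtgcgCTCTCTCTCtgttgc
brk upstream, chrX:7306782-7306882, plus strand: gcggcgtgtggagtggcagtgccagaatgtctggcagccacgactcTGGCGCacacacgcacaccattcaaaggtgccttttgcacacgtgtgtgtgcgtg

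**Figure D4:**
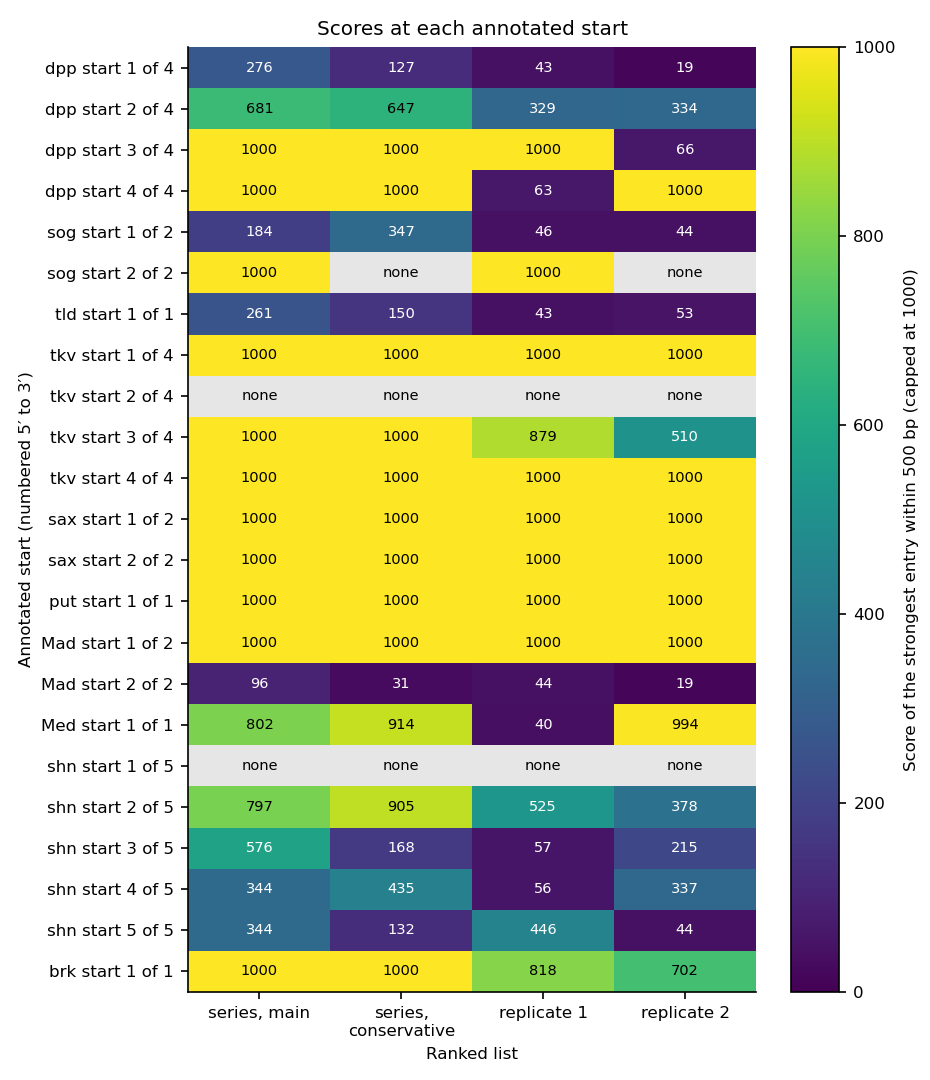
Score (0 to 1000) of the strongest entry within 500 bp of each of the 23 annotated starts in the 4 ranked lists; grey cells have no entry. Starts 1 and 4 of tkv, the starts of sax and put and start 1 of Mad are at 1000 in all 4 lists, and starts 3 and 4 of dpp change places between the replicates.

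Side by side, own-promoter summits were in the main list at 2 of 3 extracellular genes and 5 of 7 receptor and transducer genes. The conservative list had 1 and 6, replicate 1's list 2 and 4, and replicate 2's 1 and 4. Over all genes the shares were 36.2% (main), 36% (conservative), 30.8% (replicate 1) and 30.4% (replicate 2). In the main list sax, put and Mad counted only through promoters shared with a neighbour. With shared promoters left out, tkv and brk remained of the 5, and dpp and sog were unchanged. The share over all genes without shared promoters was not counted, so the percentages above do not apply to these genes. In the main list the extracellular own-promoter signals ran from 104 to 139, and those of the receptor and transducer genes from 22.9 to 604. Among the latter the 3 receptor genes had one throughout, and the 4 others between 1 and 3, Mad in every list. Genes of one class are not replicates, and with 3 and 7 of them the classes are described without a test. Values ranged widely within a class, from 187 at put to 604 at tkv among the receptor genes' strongest own promoters.

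Of the 23 annotated starts, 11 had a summit in the main and in the conservative list, 9 in replicate 1's list and 7 in replicate 2's. The same share over the 19630 starts of all protein-coding genes was not counted, so these counts have no background. Of the members with several starts, dpp was marked in the main list at starts 3 and 4, sog at start 2, tkv at starts 1, 3 and 4 and Mad at start 1. In sax 1 summit lay within 500 bp of both starts, and in shn none of the 5 was marked. Had the outermost start alone been counted, dpp and sog would have had no own-promoter summit in the main list. The own-promoter signals of the 7 genes had a median of 187, against 233 over the 5062 genes with one (interquartile range 109 to 534). Of the members only tkv stood above that range, with 78.9% of genes weaker. Within it, sax and Mad were near the middle, with 51.8% and 52.3% of genes weaker. The signals of put (43.7%) and dpp (35.1%) were below the median but within the range. Those of sog (22.7%) and brk (19.8%) were below the range.

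Summits in these windows were often not the gene's own. Of the 27 main summits, 8 lay at an own promoter alone, 3 at an own promoter shared with a neighbour, 7 at a neighbour's promoter and 9 at no promoter, so 40.7% were at an own promoter. The share was 46.2% of 26 in the conservative list, 44.4% of 18 in replicate 1's and 38.9% of 18 in replicate 2's. The same share over the windows of all genes was not counted, so it cannot be called particular to these genes. Promoters of any gene held 66.7% of the 27, against 80.1% of the whole main list. In the conservative list the shares were 69.2% and 80.3%, in replicate 1's 77.8% and 83.3%, and in replicate 2's 77.8% and 83.5%. By role, the extracellular windows had 6 summits (3 own, 2 neighbour, 1 at no promoter) and the receptor windows 10 (4 own, 2 shared, 1 neighbour, 3 at none). The transducer windows had 11 (1 own, 1 shared, 4 neighbour, 5 at none). The strongest window summit belonged to a neighbour's promoter in tld, Mad and shn.

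Summits at neighbours' and shared promoters had the higher median signals, but the ranges overlapped. The median main signal was 310 at the 7 neighbour promoters (32.3 to 561) and 250 at the 3 shared ones (187 to 254). It was 107 at the 8 own promoters (22.9 to 604) and 89.0 at the 9 sites away from promoters (54.0 to 315). The same medians were not taken over the whole list. Both replicates' thresholded lists held an entry overlapping 6 of the 7 neighbour summits and all 3 shared ones, but 3 of 8 own-promoter summits and 3 of 9 away from promoters. These counts include the companion entry of 22.9 at tkv, which overlapped replicate entries with summits 154 and 249 bp away, and the tkv summit at 5241026, which overlapped a replicate 1 entry with its summit 207 bp away. Over all 27, both lists overlapped 15, replicate 1's alone 5, replicate 2's alone 3 and neither 4. The 4 in neither were the brk pair, the intron summit of Mad and 1 intron summit of shn. Since the main list draws on the alignments of both replicates, this overlap is partly built in. The overlap was not counted over all 5720 main entries, so the contrast between places cannot be called particular to these genes. Whether it goes with the difference in signal was not tested.

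Letters of 8 proteins were sought on both strands in the 101 bp around each of the 27 summits, and 14 held at least 1 of them. How many of all 5720 windows held at least 1 was not counted, so the 14 has no background. TATCGATA reads the same on both strands, and matches of GAGAGAG within a longer run overlap each other, as those of GCCGNC and TGGCGC can. TATCGATA (DREF) was at 4, starts 1 and 3 of tkv, the start of sax and the ND-B14.5B promoter in the Mad window, against 12.8% of all 5720 windows. GGTCACAC (M1BP) was at 1, again sax (3.78% of all windows), and GAGAGAG at 2, start 4 of tkv and the brk promoter (3.25%). GCCGNC, letters bound by Mad, was at 4 (11.6%), start 4 of dpp and introns of tkv, Mad and shn. TGGCGC, bound by Brk, was at 3 (6.05%), both brk summits and an intron summit of shn.

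The letters of Hox proteins and their cofactors were at 2 of the 27 summits. TAATTA, a homeodomain core, was at 0 of 27 summits, against 6.05% of all windows. TGATNNAT, the joint core of Exd and Hox proteins, was at 1 (5.38%), the weaker summit at CG9084 and Syx6. TGACAG was at 1 (4.11%), the tRNA summit of tkv. A match describes the letters only, and its absence from these windows says nothing of the factor.

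A further 42 genes of the pathway and its targets were counted in the same way, and 28 had an own-promoter summit in the main list (36.2% of all genes did). The conservative list had 27 (36%), replicate 1's 19 (30.8%) and replicate 2's 21 (30.4%). These backgrounds also apply to the classes below, and they were not matched to the length of these genes. Ligands and extracellular factors had one at 9 of 15 in all 4 lists. The strongest were magu, a secreted modulator of Dpp spread (667 in the main list, shared with sel), Actbeta, a ligand of the activin branch (598), and dlp, a glypican (465, shared with RecQ5). The ligand genes scw and mav had none. Further receptors, Smads and regulators had one at 6 of 9 in the series-level lists and at 4 in each replicate's. Smurf, a ubiquitin ligase that acts on Mad, led with 1162 (shared with CG30105), followed by gro, a co-repressor (335), and nej, a histone acetyltransferase (288). The receptor gene babo and Sara, an endosomal adaptor, had none.

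Genes known to respond to Dpp had an own-promoter summit at 13 of 18 in the main list, 12 in the conservative one, 6 in replicate 1's and 8 in replicate 2's. Over all genes these shares were 36.2%, 36%, 30.8% and 30.4%, so the count in replicate 1's list was near the background. The strongest were tin, needed for heart and dorsal mesoderm (498 in the main list, with 284 and 210 in replicates 1 and 2), ush (169, 80.4 and 83.1) and pnr (148, 77.2 and 77.1), which act in the dorsal ectoderm. The homeobox genes zen and bap had none in any thresholded list. Of the 13, tin, ush and pnr alone exceeded the main list's median signal of 134, as tkv, sax, put, Mad and dpp did among the 10 pathway genes.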

How the data were processed

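ChIP-seq of 2 biological replicates was deposited as peak lists on dm6. Per the submitters' file notes, the authors made each replicate's lists from its own and control alignments and the series-level lists from both. The aligner, the peak caller and any filters are not named in the sources used here. The deposited columns used were the authors' score per peak, the signal per peak, the −log10 IDR (capped at 5) and the summit offset. In each ranked list 8 per-input columns carried no input's name and were left out. Depth is unknown, so no interval that needs it is given. Where nothing says otherwise, the spread between the 2 replicates may be partly technical; both values are printed in place of an SD.

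Summits on the arms were placed against protein-coding genes of the Ensembl annotation (BDGP 6.54, release 115) with Python 3.11.15, NumPy 2.4.6 and pandas 2.3.3. Figures were drawn with matplotlib 3.10.9. The placing was tested on simulated data. Sequence is from the RefSeq copy of genome release 6, counted from 1, with at most 30 UTR bases printed per site. A main peak was matched to the overlapping replicate entry (at least 1 bp) of nearest summit. All 10 genes are named, with neighbours whose promoter takes a gene's strongest summit and, of each further list, the 3 strongest own promoters and up to 2 genes without one; other neighbours, non-coding genes and the entries at CycG and Hydr2 were named after their values were seen. The genes and lists were chosen with earlier results of these data known. Alternatives tried were other lists, windows, promoter distances and starts, each replicate alone, and, added after seeing the data, ranked entries at the thresholded score and shared promoters left out.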

Additional observations from a re-analysis of the deposited data

How the results depend on the processing

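No paired analysis was possible because the series has 1 group. A count was taken as moved when it differed from the main one by over 1.5 times, and any other value when it differed by over 1 SD between the replicates. On that basis 21 of the main counts, shares and medians under the alternatives moved and 62 did not, among them 2 where the background alone changed. Genes with a window summit (main 9) ranged from 7 to 8 in single replicates and were 5 in the gene body only. Ranked entries at the thresholded score, added after seeing the data, gave 10. Own-promoter genes (main 7) were 5 to 6 in single replicates, 5 above the median signal and with the outermost start alone, 8 with a promoter of 1 kb, 10 in the ranked list, and 4 without shared promoters, also added after seeing the data. Extracellular genes (main 2) were 1 in the conservative list and among peaks above the median signal, 1 to 2 in single replicates, and 0 with the outermost start alone. Receptor and transducer genes (main 5) were 4 in each replicate. The share at an own promoter (main 40.7%) was 46.2% in the conservative list, 45.5% above the median signal, 11.5% in the ranked list, 50% in gene bodies, 45.8% within 2 kb, 36.7% within 10 kb, 33.3% with a promoter of 250 bp, 48.1% with 1 kb and 18.5% with the outermost start; single replicates gave 38.9% to 44.4%. The median strongest signal (main 250) was 310 above the list's median, 105 in gene bodies and 187 within 2 kb, and 118 to 167 in single replicates, whose lists have their own scale. Further genes (main 28) were 12 above the median signal and 19 to 21 in single replicates. Shares over all genes were counted for the deposited lists with the main window and promoter distance only. Counts under the other settings therefore have no background. The causes were not tested. The own-promoter signals of single genes moved in 24 cases and did not in 86. A gene without a thresholded own-promoter entry was given a signal of 0 here. The SD between replicates can therefore be large (for sog, listed in 1 replicate, 49.9). For tld, Med, shn and brk, which neither replicate listed at an own promoter, that SD was 0, so any change counted as moved. An SD of 0 here does not show that the replicates were alike. For dpp, tkv, sax, put and Mad the moves include both single replicates, whose lists have their own scale. The 24 is therefore not a measure of instability alone. Depth is unknown, so a gene without an entry is unlisted and not shown to lack signal, and 2 replicates of pooled embryos limit every value.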

Other observations

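Stretches without any entry in the 4 ranked lists differed in length between the windows. The longest was in shn, 11.2 kb from the upstream edge of the window to 6.21 kb inside the gene, which takes in its first start. In put it was 7.78 kb, from 3.90 kb past the start to the window's downstream edge, and in sog 5.85 kb within the gene. In sax, tld and Med no stretch exceeded 1.45 kb. These are lengths in the lists used here, and mappability was not tested.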
